A study of Mus musculus with 18 samples.

Results

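The growth hormone, STAT5 and IGF axis of the mouse liver was followed through 10 genes: Ghr, Stat5b, Socs2, Cish, Igf1, Igfals, Igfbp1, Igfbp2, Bcl6 and Cux2. They were taken by symbol from 1 table of liver RNA sequencing, and 10 of 10 were among its 19057 symbols. Each gene was read in 18 libraries, 3 in each of 6 groups, and 10 of 10 passed the filter on low values. All groups were ICR mice, an outbred stock, at 10 weeks of age, and the methods of the study describe males. Con mice received saline. STZ mice received 1 injection of streptozotocin, a toxin of pancreatic beta cells that leaves an animal short of insulin and models type 1 diabetes. A10-FMT mice received STZ and then, by mouth, the small intestine content of donors given alginate oligosaccharide (AOS) at 10 mg/kg. Con-FMT mice received STZ and the content of donors given water. The content of each kind of donor was pooled, so the transplant groups stand for 1 pool each. AOS mice (10 mg/kg, no STZ) and STZ+AOS mice are described only by the sample labels, which do not say how AOS was given. STZ was therefore shared by STZ, STZ+AOS, A10-FMT and Con-FMT. Nothing in the labels says that a library is 1 mouse, so p-values measure the spread between these libraries.

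Growth hormone from the pituitary binds its receptor on hepatocytes, activates the kinase JAK2 and leads the transcription factors STAT5A and STAT5B to the nucleus. STAT5 then drives genes of growth (Igf1, Igfals), genes that damp the signal (Socs2, Cish) and, with BCL6 and CUX2, the sex pattern of the liver: male rodents release the hormone in pulses and females more continuously, and many liver genes follow that difference. Insulin supports the receptor in the liver, and the IGF binding proteins carry IGF1 in blood and respond to insulin and fasting.

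The values are RPKM, reads per kilobase of transcript scaled to the mapped reads of a library, so levels of different genes may be compared per length. RPKM summed to between 621121 and 806937 per library, and 9955 to 10409 genes reached 1 RPKM. Hepatocyte markers (5 of 6 in the table) were the most abundant marker list in every library, at 38765 to 62086 RPKM in sum. STZ library 3 stood apart from STZ libraries 1 and 2 over all genes, with a highest correlation of 0.954 inside its group against 0.983 for the other two. STZ+AOS library 3 held exocrine pancreas markers (5 of 5 in the table) at 55.3 RPKM in sum, against at most 1 RPKM in any other library. The main counts that rest on these libraries are given with and without them.

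The sequences before the start sites of the genes were read from the RefSeq promoter table (GRCm38.p6, 250 bases before to 50 bases after each start), which matched 9 of the 10 genes in 16 windows. Socs2 was not matched. Both strands were searched for TTCNNNGAA, the letters that a STAT5 dimer is known to read, and for CAAAACAA, an insulin response element known from the Igfbp1 promoter. The first was in 5 windows of 3 genes (Cish, Bcl6 and Igfals) and in 8.3% of 32851 promoters of the same length. A window with 2 or more such matches, as in Cish and in the second start of Bcl6, made up 0.457% of promoters. CAAAACAA was in 1 of the genes, Igfbp1, and in 2.51% of promoters. A match describes the letters only. The stretches that hold them are shown because these genes are compared below, with the matched letters in capitals.
Cish, chr9:107296629-107296688, plus strand, matches at 1 to 9 and 12 to 20 bases after the start: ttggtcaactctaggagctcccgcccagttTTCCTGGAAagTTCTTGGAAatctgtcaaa
Bcl6, second start, chr16:23981353-23981481, minus strand: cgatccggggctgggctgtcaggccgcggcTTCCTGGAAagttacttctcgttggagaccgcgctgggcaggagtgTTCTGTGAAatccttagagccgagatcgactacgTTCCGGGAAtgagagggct
Igfals, second start, chr17:24878143-24878191, plus strand: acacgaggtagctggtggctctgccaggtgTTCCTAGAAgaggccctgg
Igfbp1, chr11:7197649-7197696, plus strand: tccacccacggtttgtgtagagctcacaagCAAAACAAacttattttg

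In STZ livers the receptor and the carrier of IGF1 fell, both binding proteins known to answer to insulin rose, and Igf1 itself did not pass the test. Of the 10 genes, 4 rose (Socs2, Igfbp1, Igfbp2, Cux2) and 2 fell (Ghr, Igfals) in STZ against Con at an adjusted p under 0.05. The background of that comparison was high: 38.5% of the 10602 genes tested were called, 33% higher and 5.52% lower (3502 and 585 genes). The split of calls over all genes depended on the scaling, with 1480 of 2882 higher after median-ratio scaling, while the 4 genes that rose and the 2 that fell were called there too, beside Igf1. The libraries of STZ and Con did not overlap for 8 of the 10 genes, and for 47.7% of all genes tested. The median log2 change was 0.37 over the 10 genes and 0.21 over all genes. After scaling by median ratios the median of all genes was -0.01. In bulk tissue, fewer cells of a type and less RNA per cell cannot be told apart. Kupffer cell markers (6 of 6 in the table) summed to 83.3 to 188 RPKM in STZ and 52.8 to 82.2 RPKM in Con, and stellate and fibroblast markers (6 of 6) to 107.8 to 131 RPKM and 72.0 to 83.1 RPKM. Endothelial markers (5 of 5) summed to 38.4 to 50.5 RPKM in STZ and 35.6 to 40.2 RPKM in Con, and cholangiocyte markers (5 of 5) to 3.10 to 4.65 RPKM and 3.91 to 4.59 RPKM. B and T cell markers (5 of 5) were near 0, at 0.74 to 1.35 RPKM in STZ and 1.80 to 1.96 RPKM in Con. Hepatocyte markers summed to 39838 to 51035 RPKM in STZ and 44682 to 62086 RPKM in Con, and of the 5 tested 2 fell and 1 rose, with a median log2 change of -0.52. The part of other cell types in these changes was not tested. Without STZ library 3 the same 6 genes were called, and their log2 changes were larger in size. Cux2 passed the filter on low values only through libraries with STZ, so its call and its separation depend on that filter. With a filter of 1 RPKM in every library the other 5 were called (3 higher, 2 lower), beside 40.3% of all genes.

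**Figure D1:**
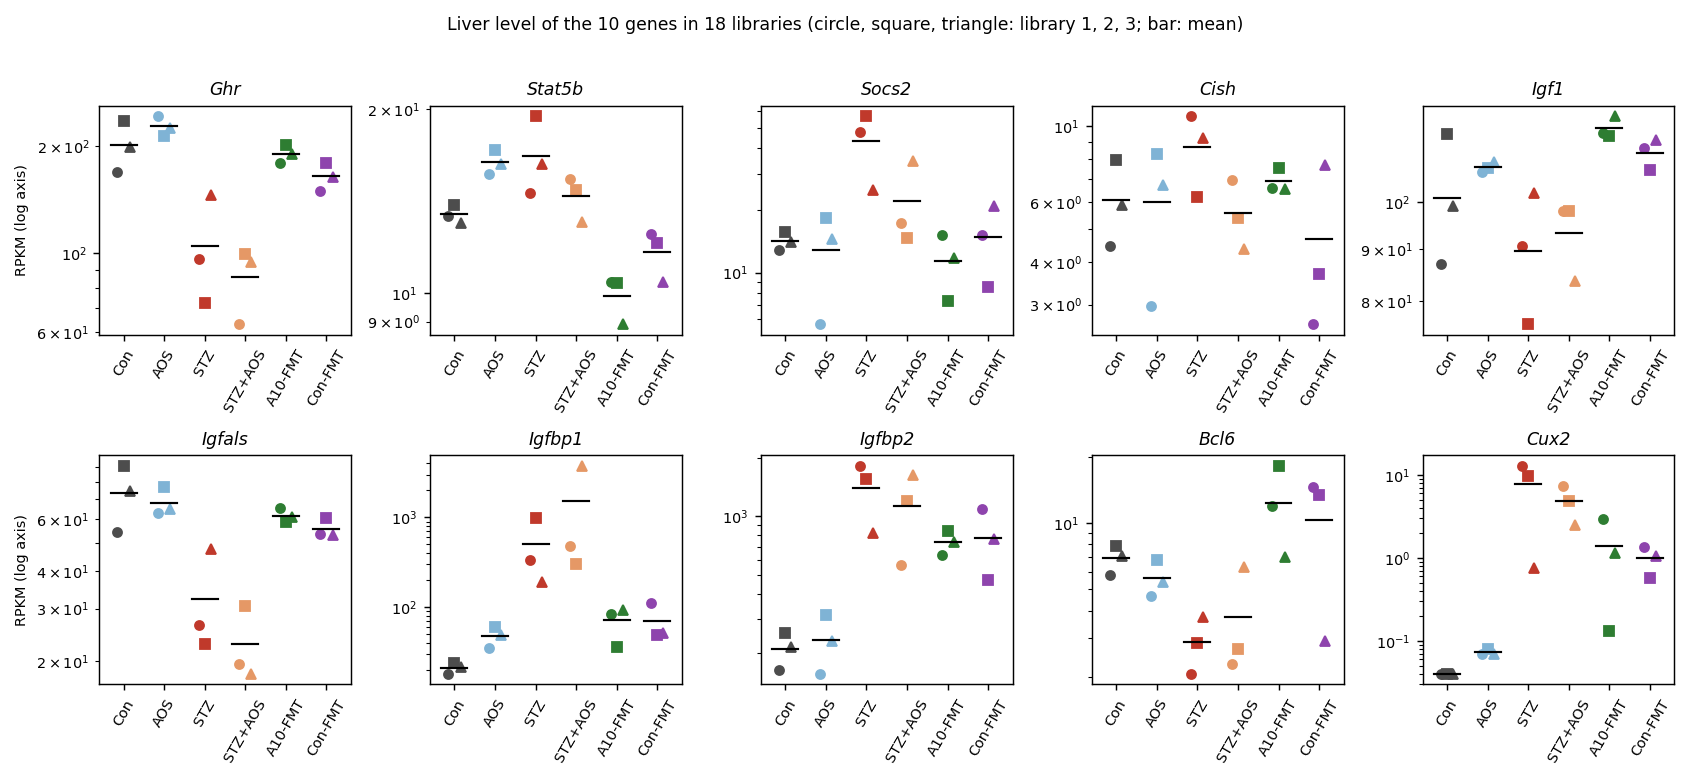
RPKM (log axis) of the 10 genes in each of the 18 libraries, by group; circles, squares and triangles are libraries 1, 2 and 3 and the bar is the group mean. Ghr and Igfals have their lowest means in STZ and STZ+AOS, Igfbp1, Igfbp2 and Cux2 have their highest there, and the A10-FMT and Con-FMT libraries lie nearer to Con for Ghr and Igfals than for Igfbp2.

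Ghr encodes the growth hormone receptor (chromosome 15, 3317760 to 3583492, minus strand, GRCm38, as for the positions of the other genes). Its level was 169.6, 236 and 199 RPKM in Con and 96.6, 72.6 and 146 RPKM in STZ. All 3 STZ libraries were below all 3 Con libraries. The means were 202 ± 33.2 and 104.9 ± 37.2 RPKM (SD, n = 3), and the log2 change was -0.98 (SE 0.21, adjusted p = 0.0053, 1.97-fold lower). A10-FMT libraries held 179, 201 and 191 RPKM, and Con-FMT libraries 149, 179.7 and 164 RPKM. Every transplant library was above every STZ library, and the A10-FMT libraries lay inside the range of Con. STZ+AOS libraries, at 63.2, 99.3 and 94.3 RPKM, overlapped those of STZ, and AOS libraries, at 243, 213 and 225 RPKM, overlapped those of Con. From the lowest mean to the highest the groups ran STZ+AOS, STZ, Con-FMT, A10-FMT, Con, AOS, and the only neighbours that did not overlap were STZ and Con-FMT.

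Stat5b encodes the transcription factor that the receptor activates (chromosome 11, 100780731 to 100850724, minus strand). Con libraries held 13.4, 14.0 and 13.04 RPKM, STZ libraries 14.6, 19.5 and 16.3 RPKM, and A10-FMT libraries 10.5, 10.4 and 8.91 RPKM. A10-FMT was thus below both other groups without overlap, and STZ was above Con without overlap. The change in STZ against Con was 0.29 on the log2 scale (SE 0.11, adjusted p = 0.0591), close to the median of all genes, and it passed the threshold in the fit of all 6 groups (adjusted p = 0.0428) and without STZ library 1 (adjusted p = 0.0288). Con-FMT libraries held 12.5, 12.1 and 10.5 RPKM, AOS libraries 15.7, 17.1 and 16.3 RPKM, and STZ+AOS libraries 15.4, 14.8 and 13.1 RPKM. The AOS libraries were all above those of Con, while the log2 difference of 0.26 (SE 0.11) had an adjusted p of 0.647. The related Stat5a, named after its values were seen, fell in STZ by 0.69 on the log2 scale (SE 0.16, adjusted p = 0.0064).

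Socs2 and Cish encode inhibitors of cytokine signalling that STAT5 switches on and that damp the growth hormone receptor in turn. Socs2 (chromosome 10, 95385362 to 95417180, minus strand) held 12.9, 15.6 and 14.0 RPKM in Con and 47.8, 56.9 and 25.04 RPKM in STZ. All STZ libraries were above all Con libraries, and the log2 change was 1.47 (SE 0.35, adjusted p = 0.00784, 2.77-fold higher). STZ library 3 held the lowest level of its group, and without it the change was 1.81 (adjusted p = 0.00136). The A10-FMT libraries, at 15.2, 7.32 and 11.8 RPKM, and the Con-FMT libraries, at 15.1, 8.55 and 20.9 RPKM, were below all STZ libraries and overlapped Con. In STZ+AOS the levels were 17.4, 14.7 and 34.4 RPKM, and in AOS 5.64, 18.3 and 14.6 RPKM, so these groups overlapped. Their log2 difference of 0.79 (SE 0.42) had an adjusted p of 0.153.

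For Cish (chromosome 9, 107296026 to 107302784, plus strand), 2 matches to the STAT5 letters lie just after its start in the RefSeq promoter table. That start is inside the span given here. Cish was not called in STZ against Con, and whether it differed from Socs2 was not tested. Its level was 4.45, 7.97 and 5.86 RPKM in Con, 10.7, 6.19 and 9.24 RPKM in STZ and 6.57, 7.54 and 6.55 RPKM in A10-FMT. The STZ and Con libraries overlapped, with a log2 difference of 0.45 (SE 0.29, 95% interval -0.19 to 1.09, adjusted p = 0.235). Con-FMT had the lowest mean, with 2.63, 3.69 and 7.68 RPKM, AOS held 2.98, 8.26 and 6.70 RPKM, and STZ+AOS 6.95, 5.38 and 4.36 RPKM. Ordered by their means, no neighbouring groups were apart. Annotated exons of Gm17041 and Gm17040 on the opposite strand share 479 and 261 bases with those of Cish, and the strand setting of the counting is not given in the sources used here, so reads of these could not be told apart.

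Igf1 encodes the growth factor that the liver releases under growth hormone (chromosome 10, 87858265 to 87937042, plus strand). Con libraries held 86.9, 116.5 and 99.1 RPKM, STZ libraries 90.5, 75.9 and 102 RPKM, and STZ+AOS libraries 98.0, 98.0 and 83.8 RPKM. STZ and Con overlapped, and the log2 difference was -0.17 (SE 0.13, 95% interval -0.45 to 0.11, adjusted p = 0.308). This outcome depended on the scaling: with median-ratio scaling the change was -0.44 (adjusted p = 0.0288) and with quantile normalization -0.45 (adjusted p = 0.0152). The AOS libraries held 107, 108 and 109 RPKM. A10-FMT libraries, at 116.7, 116.0 and 121 RPKM, and Con-FMT libraries, at 113, 107 and 115 RPKM, were above all STZ libraries.

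Igfals encodes the acid labile subunit, which holds IGF1 and its binding protein in a long-lived complex in blood (chromosome 17, 24865997 to 24882010, plus strand). Levels were 54.3, 90.6 and 74.8 RPKM in Con and 26.5, 22.8 and 47.6 RPKM in STZ, with no overlap. The log2 change was -1.20 (SE 0.24, adjusted p = 0.00368, 2.29-fold lower). It thus fell in the same libraries in which Igf1 did not pass the test. The STZ+AOS libraries were lower still in mean, at 19.5, 30.6 and 18.1 RPKM, but overlapped STZ. A10-FMT held 65.3, 58.6 and 60.9 RPKM, Con-FMT 53.5, 60.7 and 53.0 RPKM, and AOS 62.9, 76.8 and 64.9 RPKM. STZ and Con-FMT were the only neighbours in the order of means that did not overlap, as for Ghr.

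Igfbp1 encodes a binding protein that takes IGF1 out of action in the short term and is known to be held down by insulin (chromosome 11, 7197782 to 7202546, plus strand). Con libraries held 18.1, 24.0 and 21.8 RPKM and STZ libraries 334, 976 and 190.3 RPKM. Every STZ library was far above every Con library. The log2 change of 4.16 (SE 0.54, adjusted p = 0.000564, 17.9-fold) was the greatest of the 10 genes on the scale of RPKM + 1. In the ratio of mean RPKM, Cux2, near 0 in Con, stood above it (193 against 23.5). The widest spread was in STZ+AOS, where libraries 1, 2 and 3 held 481, 305 and 3757 RPKM. Library 3 there is the one with exocrine pancreas markers, and without it the log2 change in STZ+AOS against AOS was 3.002 (adjusted p = 0.00204) in place of 4.10. A10-FMT libraries, at 85.0, 35.8 and 93.6 RPKM, and Con-FMT libraries, at 111, 49.2 and 52.0 RPKM, were below all STZ libraries and above all Con libraries. AOS libraries, at 35.2, 59.6 and 49.3 RPKM, were above those of Con without overlap, with a log2 difference of 1.11 (SE 0.74) and an adjusted p of 0.803.

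Igfbp2 encodes the second abundant binding protein of the fasted or insulin-poor liver (chromosome 1, 72824503 to 72852474, plus strand). Levels were 164, 252 and 215 RPKM in Con, 1815, 1564 and 827 RPKM in STZ, and 567, 1206 and 1635 RPKM in STZ+AOS. The log2 change in STZ against Con was 2.68 (SE 0.33, adjusted p = 0.00048, 6.40-fold). Transplant livers stayed far above Con: A10-FMT held 633, 844 and 739 RPKM and Con-FMT 1087, 475 and 765 RPKM. The A10-FMT and Con libraries did not overlap, nor did the Con-FMT and Con libraries. Both transplant groups overlapped STZ and STZ+AOS. AOS held 156, 314 and 231 RPKM and overlapped Con.

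Bcl6 and Cux2 encode transcription factors that act beside STAT5 on sex-biased liver genes: BCL6 is a repressor more abundant in male liver, and CUX2 is a factor of female liver. Bcl6 (chromosome 16, 23965052 to 23988852, minus strand) held 5.79, 7.85 and 7.09 RPKM in Con and 2.06, 2.85 and 3.72 RPKM in STZ. The groups did not overlap, and the log2 change was -1.04 (SE 0.46, adjusted p = 0.0941). It passed the threshold in a fit of only these 2 groups (adjusted p = 0.0105) and without Con-FMT library 3 (adjusted p = 0.0156), a library that enters the shared estimate of the spread. Bcl6 was uneven after transplant, at 11.9, 18.2 and 7.04 RPKM in A10-FMT and 14.5, 13.4 and 2.90 RPKM in Con-FMT. The A10-FMT and Con-FMT means were the highest of the 6 groups, and Con-FMT library 3 lay inside the STZ range. STZ+AOS held 2.28, 2.68 and 6.28 RPKM and AOS 4.68, 6.78 and 5.38 RPKM, so these groups overlapped.

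Cux2 (chromosome 5, 121856366 to 122050102, minus strand) was listed at 0.04 RPKM in each of the 3 Con libraries and at 0.07, 0.08 and 0.07 RPKM in AOS. STZ libraries held 12.8, 9.60 and 0.75 RPKM, STZ+AOS libraries 7.26, 4.87 and 2.46 RPKM, A10-FMT libraries 2.92, 0.13 and 1.14 RPKM and Con-FMT libraries 1.36, 0.57 and 1.04 RPKM. Every library of a group with STZ was above every library without it. Cux2 reached 1 RPKM in 9 libraries, all with STZ, so it passed the filter only through the groups where it was high. The log2 change in STZ against Con, on the scale of RPKM + 1 that understates changes of low genes, was 2.61 (SE 0.65, adjusted p = 0.00994). STZ library 3 held much less than the other STZ libraries, and without it the change was 3.54 (adjusted p = 0.000105). This is the library that also held the least Socs2, Igfbp1 and Igfbp2 and the most Ghr and Igfals of its group.

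**Figure D2:**
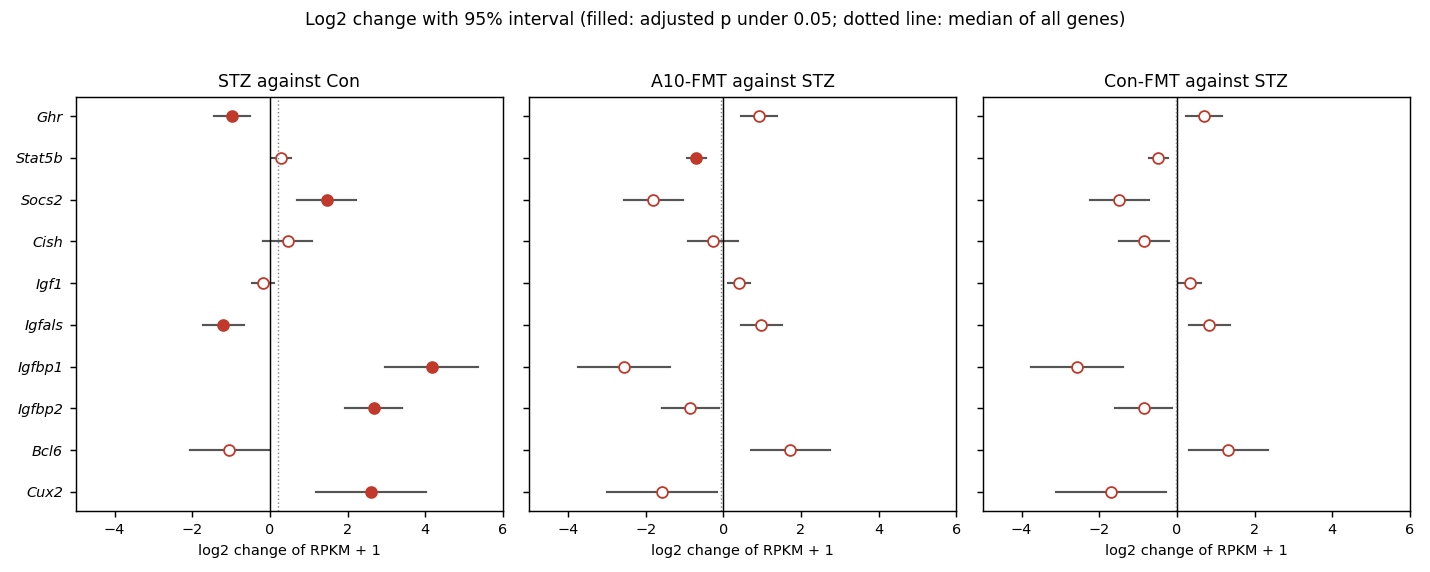
Log2 change of RPKM + 1 (points) with its 95% interval (bars) for the 10 genes in 3 comparisons; filled points have an adjusted p under 0.05 and the dotted line is the median of all genes. Of the 10 genes 6 are filled in the panel of STZ, 1 (Stat5b) in that of A10-FMT and 0 in that of Con-FMT, and the 2 transplant panels share the STZ libraries with the first.

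In A10-FMT against STZ, 1 of the 10 genes was called: Stat5b fell by 0.70 on the log2 scale (SE 0.11, adjusted p = 0.0354), beside 0.226% of all genes called. The libraries of the 2 groups did not overlap for 7 of the 10 genes and for 21.5% of all genes, and 9 of the 10 had an unadjusted p under 0.05, as did 20.9% of all genes. The log2 changes were 0.91 for Ghr (SE 0.21, adjusted p = 0.0721), 0.98 for Igfals (SE 0.24, adjusted p = 0.0771), -1.81 for Socs2 (SE 0.35, adjusted p = 0.056) and -2.57 for Igfbp1 (SE 0.54, adjusted p = 0.0619). Igf1 differed by 0.41 (SE 0.13, adjusted p = 0.129), Bcl6 by 1.72 (SE 0.46, adjusted p = 0.0917) Cux2 by -1.59 (SE 0.65, adjusted p = 0.201) and Igfbp2 by -0.86 (SE 0.33, adjusted p = 0.186). STZ library 3 decided the count. Without it 9 of the 10 genes were called, all but Cish, beside 12.7% of all genes. Ghr, Igf1, Igfals and Bcl6 then rose and the other 5 fell, with a change of 1.17 for Ghr (adjusted p = 0.00241), 0.50 for Igf1 (adjusted p = 0.0291) and -3.10 for Igfbp1 (adjusted p = 0.00514). The call of Stat5b was lost without any 1 of the 3 Con or 3 A10-FMT libraries or STZ library 2, with adjusted p from 0.0657 to 0.129. Socs2 was called without Con-FMT library 2 (adjusted p = 0.0469) and Bcl6 without Con-FMT library 3 (adjusted p = 0.0405).

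In Con-FMT against STZ, 0 of the 10 genes were called by limma, beside 0.00943% of all genes. An unadjusted p under 0.05 was reached by 10 of the 10 and by 20.1% of all genes, and 6 of the 10, against 17.7% of all genes, did not overlap. The log2 differences were 0.70 for Ghr (SE 0.21, adjusted p = 0.121), -0.48 for Stat5b (SE 0.11, adjusted p = 0.0751), -1.48 for Socs2 (SE 0.35, adjusted p = 0.0751) and -2.57 for Igfbp1 (SE 0.54, adjusted p = 0.0719). Without STZ library 3, 8 of the 10 were called, all but Cish and Bcl6, beside 15.5% of all genes. The transplants were not shown to differ from each other: in A10-FMT against Con-FMT 0 of the 10 genes were called by limma, beside 0% of all genes, and 0 of the 10 had an unadjusted p under 0.05, beside 2.86% of all genes. The libraries did not overlap for 1 of the 10, Igf1, named after its values were seen, beside 8.92% of all genes. The intervals of that difference were wide for some genes, at -0.25 to 0.68 for Ghr, -0.20 to 0.36 for Igf1 and -1.18 to 1.19 for Igfbp1 on the log2 scale. Both transplant comparisons use the same STZ libraries as STZ against Con, so opposite signs between them are not independent.

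Against Con, Igfbp2 was the 1 gene of the 10 called higher after either transplant. It rose by 1.82 on the log2 scale in A10-FMT (SE 0.33, adjusted p = 0.00645, 3.53-fold) and by 1.82 in Con-FMT (SE 0.33, adjusted p = 0.00745). In A10-FMT against Con it was 1 of 2 genes called among the 10, beside 18.4% of all genes (15.9% higher, 2.47% lower), and the other was Stat5b, which fell by 0.41 on the log2 scale (SE 0.11, adjusted p = 0.0297). That second call was lost without any 1 of the 6 libraries of these groups, with adjusted p from 0.0544 to 0.116. In Con-FMT against Con, Igfbp2 was the 1 gene called, beside 19.4% of all genes (17.5% higher, 1.89% lower). The libraries did not overlap for 4 of the 10 genes in either comparison, beside 48.9% of all genes for A10-FMT and 45.9% for Con-FMT. Igfbp1 stood at 1.59 in both comparisons (SE 0.54), with an adjusted p of 0.0614 in A10-FMT and 0.0598 in Con-FMT. It was called in both without STZ library 2 or 3 (adjusted p from 0.0237 to 0.0282), in A10-FMT also without A10-FMT library 2 (adjusted p = 0.0451), and in both in fits of only the groups compared. Cux2 differed from Con by 1.03 in A10-FMT and 0.92 in Con-FMT (SE 0.65, adjusted p = 0.279 and 0.321). For Igfbp1 and Cux2, as for Igfbp2, every library of either transplant was above every Con library. The log2 difference from Con was -0.07 for Ghr in A10-FMT (95% interval -0.54 to 0.39) and -0.28 in Con-FMT (95% interval -0.75 to 0.18). Igf1 differed by 0.23 in A10-FMT and 0.16 in Con-FMT (adjusted p = 0.214 and 0.395), with a sign that turned under quantile normalization and, in Con-FMT, under median-ratio scaling.

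A second STZ comparison shares no library with the first. In STZ+AOS against AOS 5 of the 10 genes were called, beside 37.9% of all 10822 genes tested (31.8% higher, 6.11% lower). With median-ratio scaling 1313 of 2646 calls over all genes were higher. The libraries did not overlap for 7 of the 10 genes, beside 49.1% of all genes. Ghr fell by 1.42 (SE 0.21, adjusted p = 0.000349) and Igfals by 1.57 (SE 0.24, adjusted p = 0.000395) on the log2 scale, while Igfbp1 rose by 4.10 (SE 0.74, adjusted p = 0.00103), Igfbp2 by 2.203 (SE 0.40, adjusted p = 0.001) and Cux2 by 2.36 (SE 0.59, adjusted p = 0.00645). All 5 were called without STZ+AOS library 3 too, though Cux2 passed the filter only through libraries with STZ. These 5 genes were also called in STZ against Con, in the same direction, and Socs2 was called only there. The test of the difference between these STZ effects called 0 of the 10 genes by limma (0% of all genes, and 5.4% at an unadjusted p under 0.05, Stat5b among them). For Socs2 the difference was -0.68 (SE 0.60, 95% interval -1.96 to 0.59, adjusted p = 0.924). Igf1 again did not pass (-0.21, SE 0.12, adjusted p = 0.162) and again passed with median-ratio scaling (-0.46, adjusted p = 0.0121) and quantile normalization (-0.37, adjusted p = 0.0241). Stat5b, at -0.17 (SE 0.11, adjusted p = 0.2), passed with the same scalings, at -0.41 (adjusted p = 0.0128) and -0.44 (adjusted p = 0.00982).

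**Figure D3:**
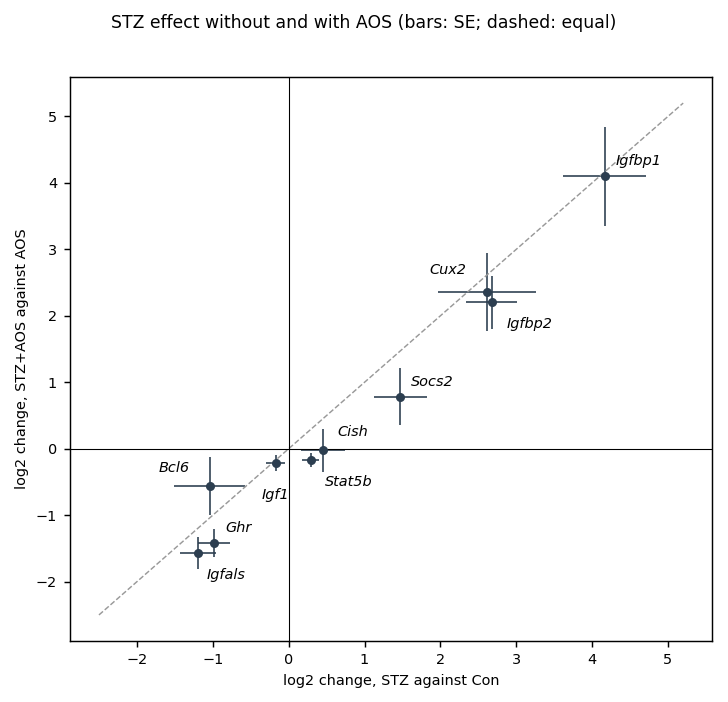
Log2 change of RPKM + 1 of the 10 genes in STZ against Con (horizontal axis) and in STZ+AOS against AOS (vertical axis), with bars of 1 SE; the dashed line marks equal changes. Igfbp1, Cux2 and Igfbp2 are at the upper right, Ghr and Igfals at the lower left, and Stat5b is the gene with a positive value without AOS (0.29) and a negative one with it (-0.17) whose groups did not overlap in either.

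AOS alone changed none of the 10 genes by this test. In AOS against Con 0 were called by limma, beside 0.00924% of all genes, and 1 of the 10 (Stat5b) had an unadjusted p under 0.05, beside 7.22% of all genes. The libraries did not overlap for 3 of the 10, beside 24.4% of all genes. In STZ+AOS against STZ 0 were called, beside 0% of all genes, and 1 of the 10 (Socs2, -0.95 on the log2 scale, SE 0.42, adjusted p = 0.806) had an unadjusted p under 0.05, beside 6.07% of all genes. The libraries of those groups overlapped for every one of the 10 genes, and did not for 5.13% of all genes. The mean of the 4 groups with STZ was also set against the mean of Con and AOS. There 6 of the 10 genes were called, beside 51.8% of all genes (44.6% higher, 7.13% lower): Ghr (-0.74, SE 0.13, adjusted p = 0.00035), Igfals (-0.82, SE 0.15, adjusted p = 0.000417) and Stat5b (-0.19, SE 0.06, adjusted p = 0.0244) fell, and Igfbp1 (2.58), Igfbp2 (2.10) and Cux2 (1.72) rose. Stat5b lost this call without Con library 2 (adjusted p = 0.0568) or AOS library 2 (adjusted p = 0.066). Socs2 (0.54, adjusted p = 0.0917) gained one without AOS library 2 (adjusted p = 0.0487) or STZ library 3 (adjusted p = 0.0434). All 12 libraries with STZ were above all 6 without it for Igfbp2 and Cux2, beside 12.2% of all genes whose libraries did not overlap in that split. Of these, Cux2 passed the filter only through libraries with STZ.

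The genes around the 10 were counted in lists chosen with earlier results of these data known, so the counts are descriptions. The list of growth hormone receptor signalling and its attenuators also held genes of other receptors, such as Lepr and Klb. Of its 18 tested genes, 10 rose and 1, Stat5a, fell in STZ against Con. Over all genes 33% were called higher and 5.52% lower. The median log2 change was 0.36 beside 0.21 over all genes. Only 4 rose and 1 fell with median-ratio scaling, beside 27.2% of all genes called. Without STZ library 2, 6 rose and 1 fell, beside 24.9% of all genes called. The top gene there was Lepr, the leptin receptor, a relative of the growth hormone receptor that signals mainly through STAT3. It held 0.14, 0.14 and 0.17 RPKM in Con and 46.3, 42.1 and 21.7 RPKM in STZ. It rose by 4.96 on the log2 scale (SE 0.46, adjusted p = 0.00019). Lepr, under 1 RPKM in every Con library, passed the filter only through libraries with STZ. In A10-FMT it held 2.99, 2.44 and 4.45 RPKM and fell by 3.09 against STZ (SE 0.46, adjusted p = 0.0286), the 1 gene of that list called in that comparison. That count stood beside 0.226% of all genes called. It was 0 without STZ library 2, beside 0% of all genes. Without STZ library 3, 1 gene of the list rose and 5 fell, beside 12.7% of all genes called. In Con-FMT Lepr held 9.29, 1.14 and 5.15 RPKM, with a difference of -2.81 from STZ (SE 0.46, adjusted p = 0.0576). For Con-FMT 0 of the 18 were called by limma, beside 0.00943% of all genes. Without STZ library 3, 5 of them fell, beside 15.5% of all genes called. Klb, the co-receptor for FGF21, rose by 1.66 (SE 0.20, adjusted p = 0.00047). Ptpn11, the phosphatase SHP2, rose by 0.50 (SE 0.10, adjusted p = 0.0031). Stat3 (0.62), the attenuator Socs3 (1.07) and the ubiquitin ligase Cblb (0.66) rose as well. Cblb, at 0.75 to 0.78 RPKM in Con, passed the filter only through libraries with STZ, as Lepr did. The count of genes of this list that rose therefore depends on that filter.

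Of the IGF ligands, receptors, binding proteins and proteases outside the 10 genes, 8 of 16 passed the filter, and 3 of the 8 rose in STZ against Con and 0 fell. The median was 0.30, beside 0.21 over all genes, of which 33% were called higher. With median-ratio scaling 2 rose, beside 27.2% of all genes called, with a median of 0.046 beside -0.011 over all genes. The 3 that rose without that scaling were Insr, Igf2r and Igfbp4. Insr, the insulin receptor, rose by 0.66 (SE 0.12, adjusted p = 0.00268) and Igf2r, the receptor that clears IGF2, by 0.46 (SE 0.10, adjusted p = 0.00531). Igfbp4, a binding protein, rose by 0.57 (SE 0.15, adjusted p = 0.012). Igfbp4 was also higher than in Con after either transplant (0.64 in A10-FMT, adjusted p = 0.0152, and 0.55 in Con-FMT, adjusted p = 0.0273). In STZ+AOS against AOS, 4 of the 9 genes tested rose and 1 fell, beside 37.9% of all genes called. Only 2 rose with median-ratio scaling, beside 24.6% of all genes called. Without STZ+AOS library 1 or 3, 0 fell, beside 34.6% and 32.1% of all genes called. By the full set of libraries Igf2bp3, an RNA binding protein, rose by 0.88 (SE 0.19, adjusted p = 0.00313), and Htra1, a protease, fell by 0.41 on the log2 scale (SE 0.15, adjusted p = 0.0378). Igf2bp3, under 1 RPKM in every Con and AOS library, passed the filter only through libraries with STZ. Of 15 transcription factors of the network, 6 rose and 0 fell, with a median of 0.32 beside the same 0.21 and 33% over all genes. With median-ratio scaling 5 rose, beside 27.2% of all genes called. The median was then 0.075, beside -0.011 over all genes. Tox, a nuclear factor of female-biased liver expression, held 0.05, 0.28 and 0.28 RPKM in Con and 6.68, 4.77 and 1.06 RPKM in STZ (1.91, SE 0.46, adjusted p = 0.0083). It passed the filter only through libraries with STZ. Trim24, a co-regulator, held 2.37, 2.31 and 2.64 RPKM in Con and 16.3, 14.4 and 5.04 RPKM in STZ (1.77, SE 0.36, adjusted p = 0.00404). Both were lowest in STZ library 3 within STZ, as Cux2 was. Hnf4a (0.75), Cebpb (0.82), Onecut2 (0.56) and Ezh1 (0.36) were the others that rose.

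The listed sex-biased genes that growth hormone sets were far apart between STZ and Con. The lists were chosen with earlier results of these data known, so their counts are descriptions and not tests of that pattern. The median log2 change of 19 tested male-biased genes was -3.80, beside 0.21 over all genes. Of the 19, 17 fell and 0 rose, beside 5.52% of all genes called lower and 33% higher. Cyp2d9 (-1.13, adjusted p = 0.163) and Serpina1e (-0.22, adjusted p = 0.352), named after their values were seen, were the others. Elovl3, an enzyme of fatty acid elongation, held 209, 228 and 239 RPKM in Con and 0.19, 0.06 and 12.03 RPKM in STZ, and Hsd3b5, a steroid enzyme, held 163, 257 and 216 RPKM and 0.23, 0.23 and 11.1 RPKM. In both, STZ library 3 held the most of its group and was still below all Con libraries. The log2 change was -6.48 for Elovl3 (SE 0.93, adjusted p = 0.00084), -6.31 for Hsd3b5 (SE 1.16, adjusted p = 0.00256), -3.68 for C6, a complement protein (SE 0.58, adjusted p = 0.00124), and -2.53 for Ugt2b38, a glucuronosyl transferase (SE 0.41, adjusted p = 0.00149). Selenbp2 (-5.24) and Cyp2u1 (-2.29) fell in STZ as well, and against AOS in STZ+AOS (-6.06 and -2.23).

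The median log2 change of 22 tested female-biased genes was 3.82 in STZ against Con. Of the 22, 18 rose and 0 fell, beside 33% of all genes called higher and 5.52% lower. A1bg (1.04), Cyp2c40 (0.79), Ntrk2 (0.05) and Sult3a1 (4.33), named after their values were seen, did not pass. Cyp2a4, a steroid hydroxylase, held 0.38, 5.21 and 2.99 RPKM in Con and 1061, 113 and 232 RPKM in STZ (6.55, SE 0.84, adjusted p = 0.000546). Cyp2b9 (5.71, SE 0.74, adjusted p = 0.000547) and Abcd2, a peroxisomal transporter (2.94, SE 0.43, adjusted p = 0.000884), rose too. So did Cyp17a1, an enzyme of steroid synthesis (5.21), and Sult1e1, the estrogen sulfotransferase (3.65). In Con, Sult1e1 held 0.22, 0 and 0.06 RPKM, Cyp17a1 0.74, 0.29 and 1.05 RPKM and Abcd2 0.19, 0.30 and 0.43 RPKM. These genes passed the filter of this comparison only because of libraries with STZ. Cyp2a4 (0.38 RPKM) and Cyp2b9 (0.92 RPKM) were under 1 RPKM in Con library 1, so they too needed a library with STZ to pass. The counts and medians of female-biased genes, here and below, therefore depend on that filter. Several genes of both lists, among them the Mup, Cyp4a12, Cyp3a41, Cyp2b and Sult2a genes, have near-identical copies between which reads can be split, so their single values are uncertain. Without STZ library 3 the counts were 17 of 19 and 19 of 22, beside 47.4% of all genes called. Without STZ library 1 or 2 they were 14 of 19 and 15 of 20, beside 30.2% and 24.9% of all genes. Y-linked markers (4 of 4 in the table) were read in every library, at 32.7 to 60.5 RPKM in sum.

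After transplant the sex-biased lists stood between Con and STZ. In A10-FMT against Con, 5 of 19 male-biased genes fell and 10 of 22 female-biased genes rose, with medians of -1.52 and 1.79. Over all genes 2.47% were called lower and 15.9% higher there. In Con-FMT against Con, 7 fell and 5 rose, with medians of -2.03 and 1.28, beside 1.89% of all genes lower and 17.5% higher. In each case 0 genes of these lists were called in the other direction. Elovl3 held 1.57, 7.53 and 0.84 RPKM in A10-FMT and 0.12, 5.85 and 2.91 RPKM in Con-FMT, and its log2 change from Con was -6.04 (SE 0.93, adjusted p = 0.00298) and -6.19 (SE 0.93, adjusted p = 0.00303). In either transplant group, 0 of 19 and 0 of 22 were called by limma when set against STZ. Over all genes 0.226% were called for A10-FMT and 0.00943% for Con-FMT. Without STZ library 3, 13 male-biased genes rose and 10 female-biased genes fell for A10-FMT, beside 12.7% of all genes called. For Con-FMT 12 rose and 13 fell, beside 15.5% of all genes called. In STZ+AOS against AOS, 17 of 19 male-biased genes fell (median -3.59), and of 24 tested female-biased genes 17 rose and 1 fell (median 3.44). Over all genes 6.11% were called lower and 31.8% higher there. Without STZ+AOS library 3, 18 male-biased genes fell, and 18 female-biased genes rose and 0 fell, beside 32.1% of all genes called.

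**Figure D4:**
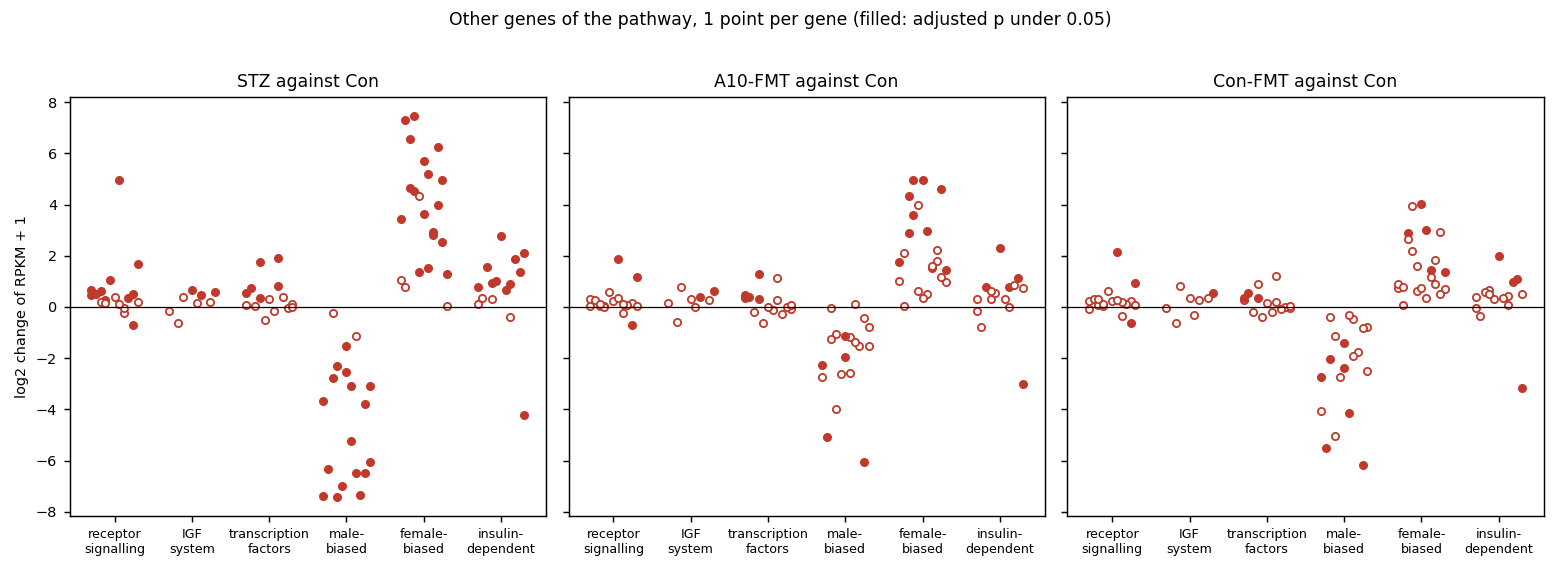
Log2 change of RPKM + 1 of each gene of 6 lists around the axis in STZ, A10-FMT and Con-FMT, each against Con; a point is 1 gene, and filled points have an adjusted p under 0.05. Male-biased genes lie below 0 and female-biased genes above it in STZ (medians -3.80 and 3.82), and nearer to 0 after either transplant.

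Genes known to answer to insulin were counted beside Igfbp1. Of 15 FOXO1 targets and insulin-dependent genes, 10 rose and 1 fell in STZ against Con. Over all genes 33% were called higher and 5.52% lower. The median log2 change of the 15 was 0.90, beside 0.21 over all genes. Pck1, the enzyme that commits carbon to glucose production, held 287, 342 and 302 RPKM in Con and 2549, 2603 and 1400 RPKM in STZ (2.76, SE 0.29, adjusted p = 0.000292). Txnip, an inhibitor of glucose uptake (2.09), Irs2, an insulin receptor substrate (1.55), the co-activator Ppargc1a (1.86) and the factor Klf15 (1.37) also rose. Ppargc1a, at 0.56 to 0.77 RPKM in Con, passed the filter only through libraries with STZ. Pck1 stayed above Con after either transplant, by 2.32 in A10-FMT (SE 0.29, adjusted p = 0.00111) and 1.999 in Con-FMT (SE 0.29, adjusted p = 0.00264), as Igfbp2 did. In either transplant group set against STZ, 0 of the 15 were called by limma, beside 0.226% of all genes for A10-FMT and 0.00943% for Con-FMT. With median-ratio scaling 1 fell in A10-FMT and 2 in Con-FMT, beside 0.727% and 0.68% of all genes called. Without STZ library 3, 6 fell in A10-FMT and 8 in Con-FMT, beside 12.7% and 15.5% of all genes called. Irs2 and Txnip were, like Igfbp1, highest of the 18 libraries in STZ+AOS library 3, at 35.5 and 245 RPKM. Pck1 and Ppargc1a were not. Among genes of the other lists Lepr, Socs3, Hnf4a, Cebpb and Tox were also highest there, while Klb and Stat3 were not. The peak was thus not particular to insulin-dependent genes, and this is the library with exocrine pancreas markers.

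The genes most like each of 6 members over the 18 libraries were found by Pearson correlation on log2(RPKM + 1) among 10822 genes. These are descriptions without a test, since the libraries of a group share their treatment. For Igfbp1 they were Ddx5, Asxl1 and Atf1 (each r = 0.981), and for Igfbp2 Eci2, Brap and Selenop (0.953 to 0.957). Igf1 was closest to Tmem86b (0.920), then to Wdr18 and 2810006K23Rik (0.849 and 0.847). Socs2 was closest to Ptpn9 (0.877), D16Ertd472e and Rnf24, and Bcl6 to Tsen15 (0.801), Gpc1 and Ntrk2. Cish had no close companion: its highest values were 0.688 for Adh7, 0.618 for E030030I06Rik and 0.616 for Ifi27l2a.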

How the data were processed

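Liver mRNA of 18 libraries was used (3 in each of Con, STZ, A10-FMT, Con-FMT, AOS and STZ+AOS). The authors selected mRNA with oligo(dT), sequenced it on an Illumina HiSeq, mapped reads to reference genes with SOAPaligner and deposited RPKM per gene and library. The submitters' processing notes also name Bowtie 0.12.2 and mm10, without a role. The strand setting is not given in the sources used here. The values were not normalized again except in alternatives.

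A gene was tested if 3 or more libraries held 1 RPKM or more of it. Group means of log2(RPKM + 1) came from limma 3.58.1 (R 4.3.3) with a trended eBayes step and two-sided tests: 10602 genes and 12 libraries of the 4 groups that the paper reports for contrasts among them, and 10822 genes and 18 libraries for contrasts with AOS or STZ+AOS and for the mean over all groups with STZ. Benjamini-Hochberg adjustment ran over every gene tested in a contrast, and genes were called at an adjusted p under 0.05. A fold change is on the scale of RPKM + 1. Smallest adjusted p in STZ against Con (3 genes per list), or calls in a contrast with a transplant or AOS group (at most 3 more), decided which list genes are named, beside all 10 members and the 3 genes most correlated with each of 6 members. The members and lists were chosen with earlier results of these data known.

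Reads per library cannot be read from RPKM. Steps between low values of 12 genes gave relative depths from 0.924 to 1.059. Positions come from GENCODE M21 (18517 of 19057 symbols matched). The procedure was tested on simulated data for STZ against Con and STZ+AOS against AOS only, with 200 changed genes each. That is far fewer than were called in these comparisons, and the transplant comparisons were not simulated. Alternatives were median-ratio scaling, quantile normalization, other pseudocounts, filters and sets of groups, limma without trend, a replicate block, the paper's stricter limits and leaving out each library. Some genes of the lists are not reported here by name.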

Additional observations from a re-analysis of the deposited data

Results flagged for a closer look

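The libraries of Stat5b were apart in opposite directions in the STZ comparisons without and with AOS, though neither log2 difference passed the test (0.29, limma adjusted p = 0.0591, and -0.17, adjusted p = 0.2). Its 3 STZ libraries (14.6 to 19.5 RPKM) were above its 3 Con libraries (13.04 to 14.0 RPKM), and its 3 STZ+AOS libraries (13.1 to 15.4 RPKM) were below its 3 AOS libraries (15.7 to 17.1 RPKM). The difference between the effects was -0.464 on the log2 scale (SE 0.149, limma unadjusted p = 0.00692, adjusted p = 0.856), so it failed the correction over all genes. Such opposite separation was seen for 0.111% of 10822 genes, and separation in the same direction for 32.7%.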

How the results depend on the processing

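Of the 10 genes, the number called moved by over 1.5 times in these settings. Under the paper's limits (adjusted p of 0.001 or less and 2-fold) it was 2 for STZ against Con (191 of all genes), 0 for A10-FMT against STZ, 0 for A10-FMT against Con (33 of all genes), 0 for Con-FMT against Con (21), 2 for STZ+AOS against AOS (298) and 2 for the groups with STZ against those without (349). For A10-FMT against STZ it was 2 with median-ratio scaling (77 of all genes), quantile normalization (47) or 1 RPKM in every library (44), and 0 with no filter (2) or only the groups compared (1). For Con-FMT against Con it was 2 with quantile normalization (845) or only the groups compared (2128).

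Over all genes, counts moved by over 1.5 times in other settings too. Fitting only the groups compared gave 2651 calls for STZ against Con, 3355 for A10-FMT against Con, 2483 for STZ+AOS against AOS, 0 for Con-FMT against STZ and 41 for AOS against Con. Median-ratio scaling and quantile normalization gave 1163 and 1107 for A10-FMT against Con, 72 and 75 for Con-FMT against STZ, 7 and 2 for AOS against Con, and 3671 and 3727 for the groups with STZ. Median-ratio scaling gave 872 for Con-FMT against Con and 2646 for STZ+AOS against AOS. The fit of all 6 groups gave 53 for A10-FMT against STZ and 18 for Con-FMT against STZ, where 1 RPKM in every library gave 15 and no filter 0. With no filter, 4 genes were called for AOS against Con, 6 for STZ+AOS against STZ and 3 for the difference between STZ effects.

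Leaving out 1 library gave 6 to 7 of the 10 genes for STZ against Con, 0 to 9 for A10-FMT against STZ, 0 to 8 for Con-FMT against STZ, 1 to 3 for A10-FMT against Con, 1 to 2 for Con-FMT against Con, 5 to 5 for STZ+AOS against AOS, 5 to 7 for the groups with STZ, and 0 to 0 for the others. Over all genes the share called moved too, from 24.2% to 47.4% for STZ against Con. It ran from 0% to 12.7% for A10-FMT against STZ and from 0% to 15.5% for Con-FMT against STZ. Against Con it ran from 5.17% to 25.2% for A10-FMT and from 5.71% to 26.6% for Con-FMT. For STZ+AOS against AOS it was 32.1% without STZ+AOS library 3 and 41.2% without STZ library 3.

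Signs turned for values that were not called. For A10-FMT against Con this was Igf1 (-0.061, quantile), and for Con-FMT against Con it was Igf1 (-0.061, median-ratio, and -0.12, quantile). For A10-FMT against Con-FMT it was Igfbp2 (0.019, median-ratio), Igfbp1 (-0.0022, quantile) and Cux2 (-0.12, pseudocount 0.1). For the difference between STZ effects it was Igf1 (0.083) and Igfbp1 (0.049), both with quantile normalization, and for the groups with STZ it was Cish (-0.11 with either scaling). Leaving out 1 library also turned signs, over these ranges of log2 differences. For A10-FMT against Con it was Ghr -0.19 to 0.046. For Con-FMT against Con they were Socs2 -0.29 to 0.31 and Bcl6 -0.068 to 0.93. For A10-FMT against Con-FMT they were Igfbp1 -0.25 to 0.43, Igfbp2 -0.31 to 0.28, Cux2 -0.34 to 0.56 and Bcl6 -0.25 to 0.75. For AOS against Con they were Igfbp2 -0.12 to 0.38, Cish -0.33 to 0.28, Igfals -0.27 to 0.091 and Socs2 -0.57 to 0.20. For STZ+AOS against STZ they were Cux2 -1.13 to 0.36, Igf1 -0.047 to 0.16, Ghr -0.49 to 0.0039, Igfbp2 -0.70 to 0.079, Igfbp1 -0.047 to 1.76 and Bcl6 -0.14 to 0.44. For STZ+AOS against AOS it was Cish -0.38 to 0.23. For the difference between STZ effects they were Igf1 -0.16 to 0.057, Igfbp1 -1.16 to 0.65 and Cux2 -1.18 to 0.31. For the groups with STZ they were Cish -0.11 to 0.20, Igf1 -0.076 to 0.029 and Bcl6 -0.18 to 0.067. The cause was not tested. With the replicate block the count stayed at 6, 1, 0, 2, 1 and 0 in the contrasts of the 4 groups and at 5 for STZ+AOS against AOS. The shares of all genes called in those contrasts of the 4 groups were 35%, 0.16%, 0.00943%, 13.6%, 13.7% and 0% with the block. Without it they were 38.5%, 0.226%, 0.00943%, 18.4%, 19.4% and 0%. The block changed no call among the 10 genes. The numbers are not said to pair the libraries. Same-numbered libraries of the 4 groups correlated at -0.25 to 0.47 (median 0.014) in their deviations from group means, over 0.1 in 7 of 18 pairs. In all 6 groups the median was 0.032, against -0.013 for libraries of other numbers. With 3 libraries a group these values cannot decide whether the numbers pair the libraries. With 3 libraries a group and unknown read depth, values under 1 RPKM, such as Cux2 in Con, are imprecise.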
